A study of Mus musculus with 15 samples.

Results

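Liver gene expression was compared between mice that had eaten an atherogenic and high-fat (Ath+HF) diet until week 68 (68w) and mice that had eaten it until week 38 (38w). The 3 arrays titled 68w Ath HF and the 3 titled 38w Ath HF, 6 of the 15 arrays of the series, make up the comparison, and the members are the 19938 genes that could be named by a single symbol. Male C57BL/6J mice were fed a basal diet, the Ath+HF diet, or the Ath+HF diet with 3% branched-chain amino acids (BCAA) from week 8, which makes 30 weeks of feeding at 38w and 60 weeks at 68w. GeneChip Mouse Gene 1.0 ST arrays measured whole liver RNA in 5 groups of 3, which are basal diet at 38w and each Ath+HF diet at 38w and 68w. Basal diet arrays are of 38w alone, and for this reason age, duration of feeding and batch cannot be told apart in what follows. Neither the labels nor the methods say whether tumor or background liver was taken at 68w, or whether different arrays stand for different mice, and p-values therefore describe only how far these arrays spread, which may be technical. Groups carry the names that the array labels give them. An exchange of the labels between the Ath+HF and the Ath+HF+BCAA arrays of 68w is possible and was not tested, and the values that the comparison would then have are given near the end.

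The Ath+HF diet is rich in fat, cholesterol and cholate and is used as a model of non-alcoholic steatohepatitis, in which hepatocytes store fat, macrophages gather and stellate cells lay down matrix. Resident macrophages of the liver are called Kupffer cells, and they are joined in steatohepatitis by macrophages that arise from blood monocytes and take up lipid. Hepatocytes answer cytokines from these cells by making acute phase proteins, burn or store fatty acids, and turn cholesterol into bile acids, which they take up, modify and export. In whole liver tissue, fewer cells of a type and less RNA per cell cannot be told apart.

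The deposited values are log2 signals after RMA, and a change is the 68w mean minus the 38w mean, so that a change of -1 is a 2-fold lower signal. Fits were made with limma over all genes, p-values were adjusted by the Benjamini-Hochberg method, and a gene is called higher or lower at an adjusted p under 0.05. Among the Ath+HF arrays of 1 age, correlations over all genes lay between 0.989 and 0.995, and between the ages from 0.961 to 0.975. Precision is limited by how few arrays there are, and the median standard error of a change was 0.125. Of 14 measured hepatocyte markers, including albumin, the mean level per array was 13.28 to 13.36 at 38w and 13.27 to 13.32 at 68w, beside 13.20 to 13.25 with the basal diet, and 1 was higher and 1 lower. The 1190 olfactory and vomeronasal receptor genes, which liver is not known to use, had a median change of 0.21, beside 0.05 over all genes. Of these receptor genes 225 were called higher and 18 lower, where all genes had 17.6% higher and 20.0% lower. They were thus called higher about as often as genes in general, but lower far less often. The higher count was 83 without Ath+HF 68w replicate 3, 141 without Ath+HF 38w replicate 1 and 116 with quantile normalization, and the lower count ran from 7 to 30 when 1 array was left out. Their median level per array was 4.92, 5.02 and 4.96 at 38w and 5.03, 5.09 and 5.49 at 68w, so Ath+HF 68w replicate 3 stood apart.

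Over all 19938 genes, 3518 (17.6%) were higher and 3985 (20.0%) lower at 68w, and 12435 were not called. Counts of list members below are to be read beside these shares. Decreases were the deeper ones. More than 2-fold decreases numbered 441 and more than 2-fold increases 89, and at more than 4-fold the counts were 38 and 3. All 3 68w arrays lay above all 3 38w arrays in 5335 genes (26.8%) and below them in 5055 (25.4%). The 15 largest changes named in each direction were picked among such genes, so their lack of overlap is no separate result. Without Ath+HF 68w replicate 3, 2318 genes were higher in place of 3518. When the arrays were centred on the receptor genes, 420 were higher, and higher genes made up 7.13% of the calls in place of 46.9%, which was 49.4% with array medians set equal and 51.8% with quantile normalization. That centring lowered the median of all genes to -0.18. No called gene named below turned its direction under any alternative, and calls lost without 1 array or with that centring are noted beside the values. With that centring the count of higher members fell in 55 of the 59 gene lists that had any, and the count of lower members rose in 53 of 70 and fell in none. Of 45 list counts of 1 or 2 members, 26 moved by more than 1.5 times without 1 array or another. Of the 3988 dimmest genes, 480 were higher and 145 lower, and of the 3988 brightest, 592 were higher and 1384 lower. Genomic span was compared among protein-coding genes with a promoter in RefSeq, without the receptor genes. Those with a short span were more often higher and those with a long span more often lower. Of the 2800 such genes with the shortest span in the annotation, 25% were higher and 11.4% lower, and of the 2800 with the longest, 10.6% and 27.7%. Genes outside the fixed rule for naming were chosen after their values were seen, and each is named as a member of its list.

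**Figure D1:**
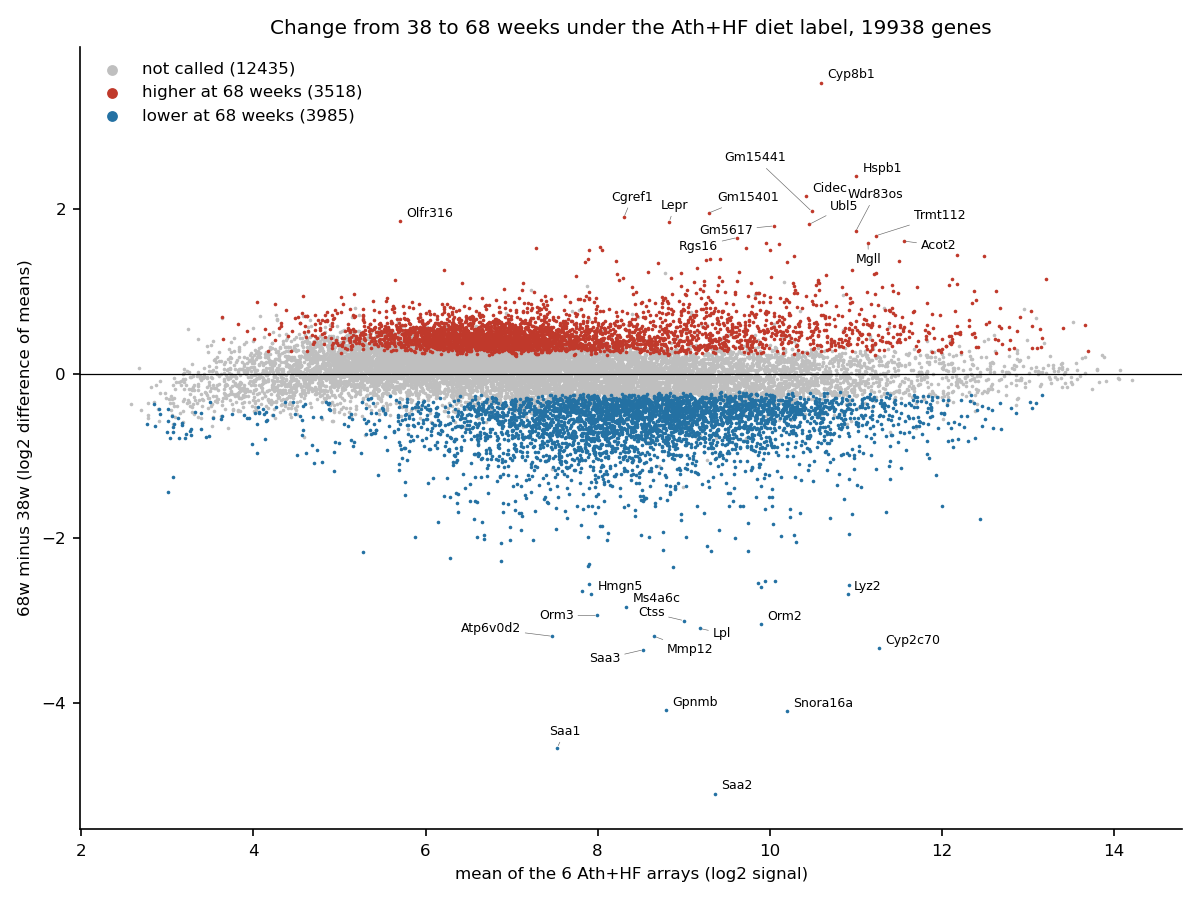
Change of each of the 19938 genes between the Ath+HF arrays of 38w and 68w (vertical axis, log2) against its mean log2 signal over these 6 arrays (horizontal axis). Points are genes, coloured where they were called higher or lower, and the 15 largest changes in each direction are named. The deepest decreases, led by Saa2 at -5.11, lie among genes of middle and high signal, and the largest increase is Cyp8b1 at 3.54.

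Most markers of lipid-laden macrophages and monocytes were lower at 68w. Gpnmb, a transmembrane glycoprotein that such macrophages carry, had log2 signals of 10.59, 10.88 and 11.03 at 38w and 6.46, 6.41 and 7.36 at 68w. Lpl, which frees fatty acids from lipoproteins and is high in such macrophages, was at 10.72, 10.88 and 10.62 at 38w and 7.57, 7.50 and 7.85 at 68w. Every 68w array of both genes lay below every 38w array by more than 2 log2 units, and the basal diet arrays of 38w read 5.97 to 6.62 for Gpnmb and 7.67 to 8.20 for Lpl, close to the 68w values. The changes were -4.09 (standard error 0.27, adjusted p = 1.44e-07) for Gpnmb and -3.10 (standard error 0.17, adjusted p = 2.57e-08) for Lpl, signals 17.0-fold and 8.56-fold lower. Atp6v0d2, a subunit of the proton pump of lysosomes, changed by -3.19 (standard error 0.39, adjusted p = 2.78e-05), and Mmp12, the macrophage elastase, by -3.19 (standard error 0.33, adjusted p = 7.1e-06). Of 19 markers of lipid-associated macrophages, 13 were lower and none was higher, beside 20.0% and 17.6% of all genes, with a median of -0.92. The others included the galectin Lgals3 (-1.77), the integrin Itgax (-1.67) and Trem2 (-0.94), a lipid receptor, while Apoe, which hepatocytes make in large amounts, was at 0.05 and not called. Averaged over the 19 markers, the arrays read 10.4 to 10.6 at 38w, 9.21 to 9.28 at 68w and 9.18 to 9.44 with the basal diet.

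Markers of monocytes and infiltrating macrophages were lower in 17 of 19 and higher in none, with a median of -1.46. The mean level of the list per array fell below the basal diet, from 8.50 to 8.85 at 38w to 7.18 to 7.36 at 68w, beside 7.66 to 7.78. Lyz2, the lysozyme of myeloid cells, was at 12.04, 12.52 and 12.17 at 38w and 9.27, 9.55 and 9.88 at 68w, and Ms4a6c, a membrane protein of monocytes, at 9.88, 9.84 and 9.53 at 38w and 6.95, 6.81 and 7.0 at 68w. The groups did not overlap in either gene, and the changes were -2.68 (standard error 0.19, adjusted p = 4.52e-07) and -2.83 (standard error 0.16, adjusted p = 4.28e-08). Probes of Ms4a6c may also detect its close relatives. Mpeg1, a pore-forming protein of macrophages, changed by -2.54 (standard error 0.16, adjusted p = 7.88e-08) and Tyrobp, the adaptor of Trem2 and other myeloid receptors, by -1.90 (standard error 0.14, adjusted p = 7.73e-07). Ccr2, the receptor that draws monocytes to tissue, changed by -1.55 (standard error 0.28, adjusted p = 0.000635). Resident Kupffer cell markers fell as well, 12 of 18, with 2 higher and a median of -0.83. Cd5l, a protein secreted by tissue macrophages, was at 11.33, 11.53 and 11.12 at 38w and 9.44, 9.45 and 8.95 at 68w, with no overlap and a change of -2.05 (standard error 0.16, adjusted p = 9.87e-07). Csf1r, the receptor for the growth factor of macrophages, changed by -1.82, Adgre1, the antigen F4/80, by -1.98, and Clec4f, a lectin of Kupffer cells, by -0.69. Timd4 (-0.31) and Marco (0.24) were not called, and the scavenger receptor Cd163 rose from 6.03, 6.88 and 6.66 to 7.14, 7.43 and 7.38 (0.80), while the basal diet arrays read 8.01 to 8.32.

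Many genes with which such cells sense, engulf and present foreign matter, some of them also carried by other cells, were lower as well. Toll-like receptors and their partners detect microbial molecules, and 14 of 17 measured were lower, with a median of -0.98. Tlr8 (-2.02) and Tlr13 (-1.93), which sense RNA inside the cell, Ly86 (-2.10) and Cd180 (-1.96), which form a receptor complex, and Cd14 (-1.50), the co-receptor for endotoxin, led the list. The adaptors Myd88 (0.40) and Ticam1 (1.23), which are not particular to immune cells, were higher, although Myd88 was not called with arrays centred on the receptor genes. Ticam1 was at 8.34, 8.28 and 8.45 at 38w and 9.52, 9.57 and 9.68 at 68w, without overlap. Of 12 genes of MHC class II presentation, 9 were lower and none was higher. H2-Ab1, a chain of the class II molecule, was at 11.56, 11.30 and 10.74 at 38w and 8.52, 8.72 and 8.83 at 68w, and Ctss, the cathepsin that trims its invariant chain, at 10.43, 10.58 and 10.50 at 38w and 7.40, 7.46 and 7.63 at 68w. Neither overlapped, and the changes were -2.52 (standard error 0.24, adjusted p = 3.74e-06) and -3.0 (standard error 0.15, adjusted p = 1.54e-08). H2-Eb1 (-1.65), H2-Aa (-1.61) and the invariant chain Cd74 (-1.64) were lower too, while Ciita (-0.20), the activator of class II transcription, was not called.

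Cybb, the catalytic subunit of the phagocyte NADPH oxidase, was at 11.41, 11.38 and 11.18 at 38w and 8.85, 8.76 and 8.79 at 68w, a change of -2.52 (standard error 0.14, adjusted p = 3.89e-08) without overlap, and its partners Cyba (-1.61) and Ncf1 (-0.70) were lower, in a list of 7 with 5 lower. The list also holds Nox4 (-0.82), an oxidase that hepatocytes and stellate cells carry. Of 26 cathepsin and lysosomal genes, 13 were lower and none was higher, with a median of -0.33. The largest after Ctss were the legumain Lgmn (-1.31) and the lysosomal membrane protein Laptm5 (-1.19), whereas the lysosomal proteins Lamp1 (-0.22), Lamp2 (-0.12) and Ctsl (-0.22) were not called. Among 21 integrins and leukocyte adhesion genes, 17 were lower, 1 was higher and the median was -0.84. They include the leukocyte chains Itgb2 (-1.51), Itgal (-1.07) and Itga4 (-1.47), the endothelial ligand Vcam1 (-1.24), the hyaluronan receptor Cd44 (-1.20) and chains that most cells carry, Itgb1 (-0.87) and Itgav (-0.86).

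**Figure D2:**
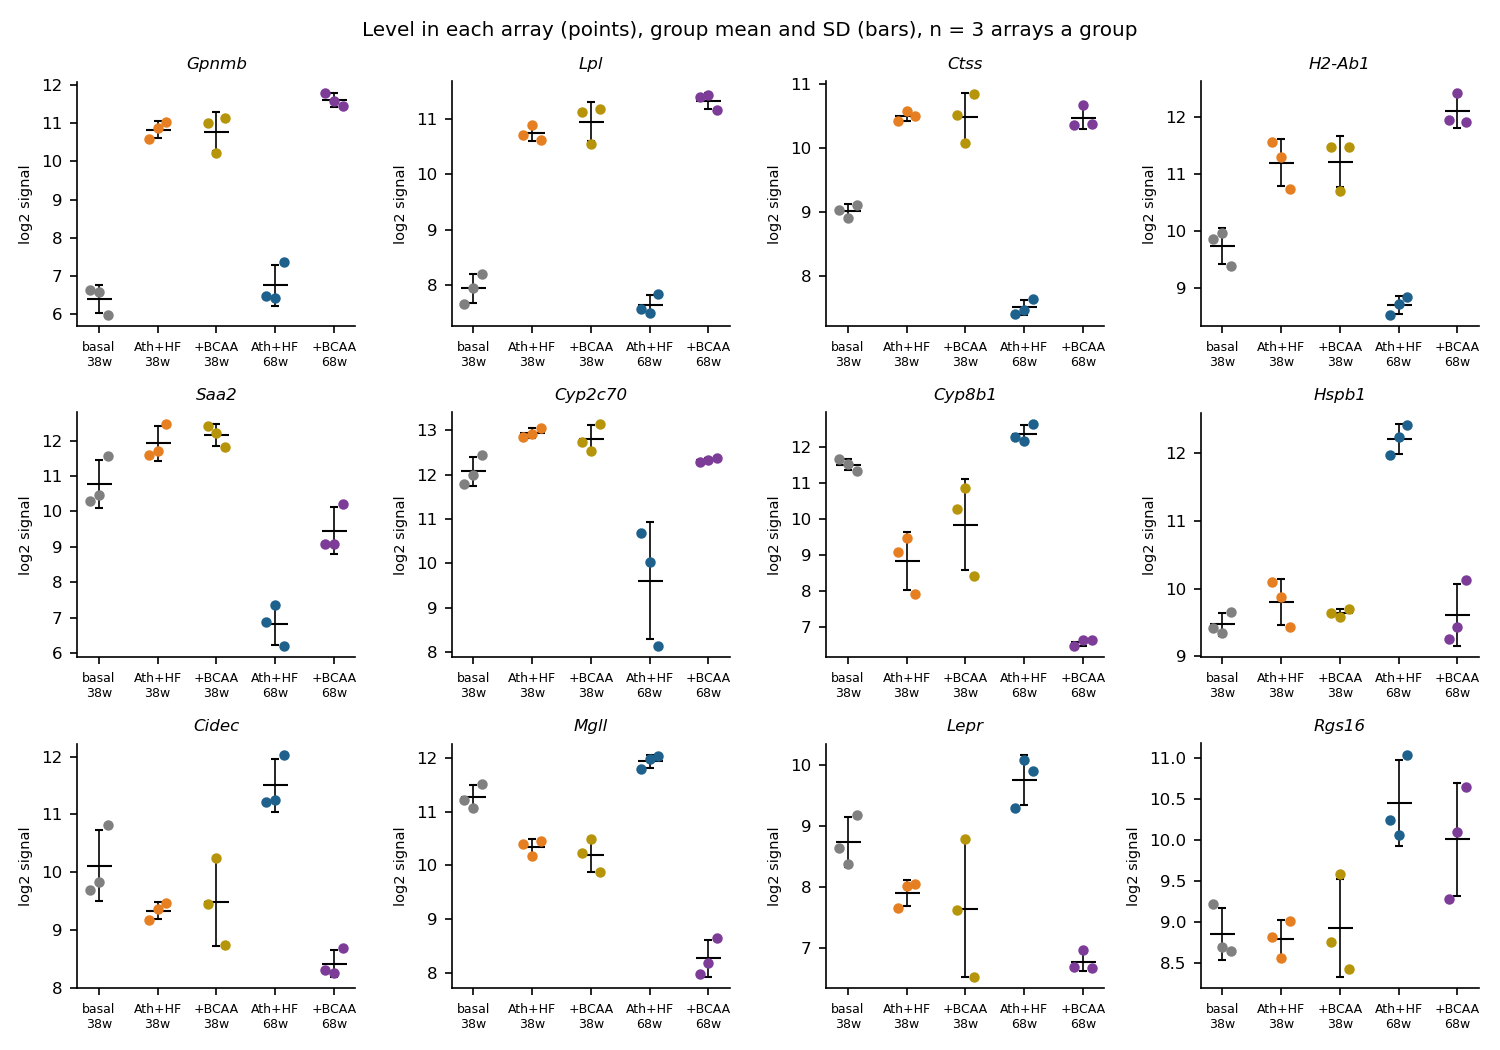
Log2 signal of 12 genes (vertical axes) in each of the 15 arrays, grouped as basal diet 38w and as Ath+HF and Ath+HF+BCAA at 38w and then at 68w (horizontal axis). Points are arrays, and bars show the mean and SD of 3 arrays. In each of the 12 genes the 3 Ath+HF 68w arrays do not overlap with the 3 Ath+HF 38w arrays. Apart from H2-Ab1, these genes were picked among genes without such overlap. For Gpnmb, Lpl, Ctss and H2-Ab1 the Ath+HF+BCAA 68w arrays stand high where the Ath+HF 68w arrays stand low.

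Acute phase proteins are made by hepatocytes under the control of cytokines such as IL-6 and IL-1, and 13 of 23 measured genes were lower at 68w, with Hamp alone higher. Saa2, a serum amyloid, was at 11.59, 11.69 and 12.48 at 38w and 6.89, 7.36 and 6.20 at 68w, and the basal diet arrays read 10.30 to 11.55. The 68w arrays lay below both 38w groups in that gene, and the change of -5.11 (standard error 0.38, adjusted p = 5.44e-07) was the deepest of all genes, a 34.4-fold lower signal. Saa1 changed by -4.55 (standard error 0.42, adjusted p = 3.21e-06) and Saa3, the serum amyloid that macrophages also make, by -3.36 (standard error 0.23, adjusted p = 1.94e-07). The orosomucoids Orm2 (-3.05) and Orm3 (-2.94) were lower while Orm1 (-0.31), the brightest of the family, was not called. Genes of the Saa and of the Orm family have near-identical sequences, and the arrays may not keep them apart. Lcn2, which binds iron carriers of bacteria and is made by hepatocytes and neutrophils, changed by -2.56 (standard error 0.15, adjusted p = 7e-08). Of the chains of fibrinogen, Fga (-0.52) was lower and Fgb (-0.15) and Fgg (-0.07) were not called. Hamp, the hepatocyte hormone that limits iron uptake, was at 12.04, 12.04 and 11.25 at 38w and 12.99, 13.43 and 13.21 at 68w, with a change of 1.43 (standard error 0.29, adjusted p = 0.00166).

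Complement genes were lower in 17 of 24 and higher in 1, with a median of -0.60. The macrophage genes C1qa (-0.97), C1qb (-1.21) and C1qc (-1.22) and the receptor C3ar1 (-1.44) were lower. Among genes made mostly by hepatocytes, the lectin Mbl2 (-1.40), the components C9 (-1.03), C6 (-0.94) and Hc (-0.56) of the membrane attack complex, and factors Cfb (-0.82) and Cfi (-0.66) were lower, whereas C4b (-0.24) and C8b (-0.21) and Serping1 (-0.001) were not called. Mbl2 was at 10.80, 10.61 and 10.78 at 38w and 9.84, 9.42 and 8.73 at 68w, and C9 at 12.34, 12.36 and 12.39 at 38w and 11.53, 11.39 and 11.09 at 68w. The groups did not overlap in these genes. Of 36 chemokines and their receptors, 12 were lower, 1 was higher and the median was -0.23, and the higher count was 4 without 38w replicate 1 and 2 without 38w replicate 2. Those lower included Cxcl9 (-1.99), a ligand that draws T cells, Ccl6 (-1.69), Ccl3 (-1.29) and Ccl5 (-1.02) and Cxcl2 (-0.93), which draws neutrophils, while Ccl2 (-0.36), the ligand of Ccr2, was not called. Among 24 inflammasome and cytokine genes, 14 were lower and 2 higher, with a median of -0.39. They comprised the inflammatory caspases Casp1 (-1.26) and Casp4 (-1.37), the sensor Aim2 (-1.07) and the cytokines Il18 (-1.51), Il1a (-0.88), Il1b (-0.88) and Tnf (-0.59).

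Other cell types gave smaller counts, to be read beside 20.0% lower and 17.6% higher of all genes. Neutrophil markers were lower in 4 of 15 and higher in none, and without 38w replicate 2 or without 68w replicate 2 the count was 2. S100a8, a calcium-binding protein of neutrophils, was at 6.88, 7.54 and 7.04 at 38w and 5.79, 5.75 and 5.76 at 68w, a change of -1.38 (standard error 0.38, adjusted p = 0.0105), but its partner S100a9 (-0.23) was not called. Of 14 NK and cytotoxic cell markers, 4 were lower, led by Ccl5 (-1.02), Klrk1 (-0.81) and Klrd1 (-0.73), and perforin, Prf1 (0.55), was higher. Of 14 T cell markers, Cd3g (-0.89) and Icos (-0.55) were lower, Foxp3 (0.34) and Ctla4 (0.34) higher and Cd3e (0.15), Cd4 (-0.24) and Cd8a (0.26) not called. Each of the 4 calls was lost without 1 array or another, with adjusted p up to 0.164, 0.182, 0.155 and 0.156. Foxp3 and Ctla4 were also not called with arrays centred on the receptor genes or with quantile normalization, and no T cell gene was lower without 38w replicate 1 or 2 or any 1 of the 68w replicates. Of 14 B and plasma cell markers, Mzb1 (0.48), Tnfrsf17 (0.41), Pou2af1 (0.34) and Blk (0.34) were higher, and Bank1 (-0.92) was lower, with 3 lower without 38w replicate 3. None of these 4 was higher when arrays were centred on the receptor genes, and the count was 1 without 68w replicate 2 and 2 without any 1 of the 38w replicates or without 68w replicate 3. Sinusoidal endothelial markers were lower in 7 of 20 with a median of -0.27, among them Tek (-0.84), Pecam1 (-0.71) and Fcgr2b (-0.69), while Gpr182 (0.53) was higher and Stab1 (-0.11), Stab2 (-0.22) and Lyve1 (-0.33) were not called. Of 12 cholangiocyte markers, Anxa3 (-1.15) was lower, Cldn4 (0.57) was higher, and the keratins Krt7 (0.24) and Krt19 (-0.06) were not called. Prf1, Gpr182 and Cldn4 were not called with arrays centred on the receptor genes. Of 10 exocrine pancreas markers, which would mark tissue from outside the liver, 3 were higher, or 1 without 38w replicate 1, 38w replicate 2 or 68w replicate 3.

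Matrix genes were counted by kind. Of 29 matrix glycoproteins and proteoglycans, 14 were lower and none was higher, with a median of -0.36, whereas of 24 collagen chains 4 were lower, 5 were higher and the median was 0.02. The median of the collagen chains was -0.21 when arrays were centred on the receptor genes, where none was higher and 8 were lower. With quantile normalization it was 0.11, with 7 higher and 1 lower. Lum, the proteoglycan lumican, was at 8.49, 8.93 and 8.55 at 38w and 7.04, 6.84 and 7.14 at 68w, a change of -1.65 (standard error 0.14, adjusted p = 1.25e-06) without overlap. Postn (-0.95) and the thrombospondins Thbs1 (-1.09) and Thbs2 (-0.71) were lower, as were tenascin Tnc (-0.93) and the proteoglycans Bgn (-0.57) and Dcn (-0.52). Col1a2, a chain of type I collagen, was at 8.53, 8.77 and 8.72 at 38w and 8.02, 8.10 and 8.01 at 68w, a change of -0.63 (standard error 0.18, adjusted p = 0.0113), and Col14a1 (-0.97), Col3a1 (-0.47) and Col6a1 (-0.36) were lower with it. Without 38w replicate 2 the lower chains were 2, and Col3a1 was not called without 38w replicate 2 or 68w replicate 3 (adjusted p up to 0.105). Col1a2, Col3a1 and Col6a1 were not called with quantile normalization. Col1a1 read 8.51, 8.78 and 8.68 at 38w and 8.21, 8.35 and 8.33 at 68w, a difference of -0.36 that was not called. The 5 higher chains were Col8a2 (0.39), Col4a6 (0.37), Col16a1 (0.34), Col7a1 (0.32) and Col27a1 (0.29), and their number was 1 without 38w replicate 1, 3 without 38w replicate 2, and 2 without 68w replicate 2 or 3.

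Of 18 stellate cell and fibroblast markers, 8 were lower, or 5 without 38w replicate 1 and 4 with quantile normalization. They held Lrat (-0.74), the enzyme that stores vitamin A as its ester, and the receptor Pdgfra (-0.59), while the contractile genes Acta2 (-0.19), Tagln (-0.24) and Des (-0.19) were not called. Ecm1, a secreted matrix protein, went the other way and was at 10.07, 9.97 and 9.92 at 38w and 11.07, 11.04 and 11.26 at 68w, a change of 1.14 (standard error 0.09, adjusted p = 7.73e-07) without overlap. Proteases and inhibitors fell in 10 of 24, including the inhibitors Timp1 (-1.68) and Timp2 (-0.82) and, beside Mmp12, the collagenase Mmp13 (-1.44), the gelatinase Mmp2 (-0.98) and the urokinase Plau (-1.25). Of 28 genes of TGF-beta and PDGF signaling, 9 were lower, or 5 without 38w replicate 2, and 2 were higher. The receptors Tgfbr1 and Tgfbr2 were at -0.90 and -0.72, the ligand Pdgfc at -0.98, and Smad2, which carries the signal of the receptors, at -0.69. Tgfbr1 had signals of 9.84, 9.82 and 9.72 at 38w and 8.80, 8.88 and 9.0 at 68w, without overlap. Inhbe, an activin subunit made by hepatocytes, rose (1.06 (standard error 0.21, adjusted p = 0.00126)). Among genes of mesenchymal transition, vimentin, Vim (-1.35), and Zeb2 (-1.14) were lower, and Twist2 (0.57) and Snai1 (0.43) were higher, though not with arrays centred on the receptor genes.

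The largest increase of all genes fell on bile acid synthesis. Cyp8b1, the sterol hydroxylase that directs synthesis to cholic acid, was at 9.08, 9.47 and 7.92 at 38w and 12.29, 12.16 and 12.65 at 68w, and the basal diet arrays read 11.34 to 11.66. All 68w arrays stood above all 38w arrays, and the change was 3.54 (standard error 0.46, adjusted p = 4.96e-05), a 11.7-fold higher signal. Cyp2c70, which makes muricholic acids in mice, went the other way, at 12.85, 12.92 and 13.06 at 38w and 10.67, 10.03 and 8.13 at 68w, a change of -3.33 (standard error 0.42, adjusted p = 4.08e-05) or a 10.1-fold lower signal. The 68w arrays lay below the 38w arrays, and also below the basal diet arrays at 11.78 to 12.44. Cyp7a1, the rate-limiting enzyme of the pathway, read 9.93, 10.32 and 9.14 at 38w and 10.09, 7.15 and 9.01 at 68w, and its difference of -1.05 (standard error 0.79, adjusted p = 0.307) was not called. Of 33 genes of bile acid synthesis and FXR signaling, 5 were higher and 11 lower, or 7 without 38w replicate 1 or 2 and 6 without 68w replicate 3. Higher were Nr0b2 (0.75), the repressor that FXR induces, and Hsd3b7 (0.56), an enzyme of the pathway, which was not called with arrays centred on the receptor genes. Lower were the exporter Abcb11 (-0.97), the sterol exporter Abcg5 (-1.68) and the cholesterol exporters Abcg1 (-1.60) and Abca1 (-0.66) of macrophages and hepatocytes. Abcg5 was at 12.23, 12.35 and 11.97 at 38w and 10.71, 10.65 and 10.17 at 68w without overlap.

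Genes that store and release fat in droplets rose together, 10 of 18 with a median of 0.60, or 6 when arrays were centred on the receptor genes. Cidec, which fuses droplets, was at 9.18, 9.37 and 9.46 at 38w and 11.22, 11.26 and 12.04 at 68w, and Mgll, the lipase that ends the breakdown of triglyceride, at 10.39, 10.18 and 10.46 at 38w and 11.80, 11.98 and 12.04 at 68w. Neither overlapped between the ages, and the changes were 2.17 (standard error 0.34, adjusted p = 0.000207) and 1.60 (standard error 0.18, adjusted p = 1.56e-05). G0s2 (1.43), an inhibitor of the triglyceride lipase, and that lipase itself, Pnpla2 (0.82), both rose, and Hilpda (0.91), Cideb (0.69) and the droplet-forming protein Fitm2 (0.60) rose too, Fitm2 not with arrays centred on the receptor genes. Plin2, the most abundant coat protein of droplets, read 13.03, 12.98 and 12.98 at 38w and 13.29, 13.42 and 13.41 at 68w and was not called (0.37). The 1 gene of the list that fell was Lpl. Fatty acid oxidation genes, targets of the receptor PPAR-alpha, were higher in 15 of 30 and lower in none, with a median of 0.42, and 4 of them were higher when arrays were centred on the receptor genes. Vnn1, a pantetheinase, was at 11.87, 11.32 and 11.43 at 38w and 12.62, 12.86 and 12.38 at 68w with a change of 1.08 (standard error 0.23, adjusted p = 0.00215), and Hadh, a dehydrogenase of the oxidation spiral, at 0.57. Bdh1 (0.58), of ketone body synthesis, was higher, Bdh1 and Hadh lost their call with that centring, and Acadm (0.13), Hadha (0.07) and Acaa2 (0.04) were not called. Against the basal diet arrays the median of the list was -0.35 at 38w and 0.07 at 68w.

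Acyl-CoA thioesterases split within the family. The mitochondrial enzyme Acot2 was at 10.77, 10.67 and 10.81 at 38w and 12.32, 12.56 and 12.23 at 68w, a change of 1.62 (standard error 0.27, adjusted p = 0.000368), and its neighbor Acot1 (1.53) was also higher, although probes of these close copies may be shared. Acot9 (-0.64) was lower, but not without 68w replicate 2 (adjusted p = 0.0517), and the list of 13 had 4 higher and 1 lower. Of 22 genes of fatty acid synthesis, 7 were higher and 5 lower, and the median of 0.05 turned to -0.18 when arrays were centred on the receptor genes. Higher were the elongases Elovl5 (0.59) and Elovl6 (0.88), the desaturase Fads2 (0.58) and Acacb (0.94), whose product restrains oxidation, while Scd2 (-1.61) was lower and Fasn (-0.40), Scd1 (-0.10) and Srebf1 (-0.79) were not called. The lower count was 2 without 38w replicate 2 or 68w replicate 2, 3 without 38w replicate 3 and 1 without 68w replicate 3, and Elovl5 and Fads2 were not called with that centring. Apolipoproteins were higher in 8 of 19 and lower in 1, with Apoa4 (1.15), Apoa2 (0.59) and Apoa5 (0.48) among the higher. Their median of 0.21 became -0.02 with arrays centred on the receptor genes, where 2 were higher, Apoa2 and Apoa5 not among them, and 2 lower. Of 20 genes of cholesterol synthesis, Sqle (0.83) and Tm7sf2 (0.67) were higher, Msmo1 (-0.66) lower and the other genes not called, and Tm7sf2 was not called with that centring.

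Lepr, the leptin receptor, was at 7.66, 8.01 and 8.05 at 38w and 9.29, 10.09 and 9.90 at 68w, a change of 1.85 (standard error 0.39, adjusted p = 0.00196) without overlap. It led a list of 19 insulin and leptin signaling genes in which 6 were higher, among them Irs1 (0.71), and 5 were lower, among them the kinase subunits Pik3cb (-0.85) and Pik3r3 (-0.78). The median of this list was 0.04 and turned to -0.19 with arrays centred on the receptor genes, where Irs1 was not called. Fgf21, a hepatocyte hormone induced by PPAR-alpha and by amino acid shortage, was at 8.24, 7.84 and 8.01 at 38w and 9.16, 9.19 and 9.80 at 68w, with a change of 1.35 (standard error 0.37, adjusted p = 0.00971). Atf5, a transcription factor of the mitochondrial stress response, was at 9.30, 9.48 and 9.78 at 38w and 10.88, 10.71 and 11.06 at 68w, with a change of 1.36 (standard error 0.15, adjusted p = 1.41e-05). Neither gene overlapped between the ages. Of the 25 genes of the ATF4 and amino acid response, to which both belong, 3 were higher and 4 lower, or 2 without 38w replicate 1, and Asns (0.38), Trib3 (0.34) and Ddit3 (-0.04) were not called. The list thus did not move in 1 direction, and its median of 0.11 turned to -0.12 with arrays centred on the receptor genes. The promoter of Fgf21 is printed because it holds the ATF4 response element TGATGCAAT, searched on both strands, in a window of 300 bases that ends shortly after the start. The element stood in 2 of the 22 promoters of this list found in RefSeq, those of Fgf21 and Nupr1, and in 0.147% of 15614 promoters. The sequence is from RefSeq, build GRCm38.p6, chr7:45615441-45615740 on the minus strand, with the element in capitals.
Fgf21: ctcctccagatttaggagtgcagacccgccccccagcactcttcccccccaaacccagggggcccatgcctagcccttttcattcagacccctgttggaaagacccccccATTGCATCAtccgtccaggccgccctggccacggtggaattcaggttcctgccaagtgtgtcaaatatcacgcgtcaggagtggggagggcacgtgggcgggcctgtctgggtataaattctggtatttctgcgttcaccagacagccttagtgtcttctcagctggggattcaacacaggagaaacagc

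Heat shock genes were led by Hspb1, a small chaperone, at 10.10, 9.88 and 9.43 at 38w and 11.97, 12.24 and 12.42 at 68w, and the basal diet arrays read 9.35 to 9.66. The 68w arrays stood above all others, of which the highest, in the Ath+HF+BCAA 68w group, read 10.13, and the change was 2.40 (standard error 0.20, adjusted p = 1.38e-06), a 5.30-fold higher signal. Its partner Bag3 was at 9.35, 9.15 and 9.24 at 38w and 10.94, 10.82 and 10.51 at 68w, a change of 1.51 (standard error 0.14, adjusted p = 4.47e-06), and Hspb6 (0.95), Stip1 (0.80) and Hsp90aa1 (0.59) were higher. In all 7 of 19 were higher and 1 was lower, with Hspa8 (0.21), Hspd1 (-0.21) and Dnajb1 (0.23) not called, and the median of 0.18 turned to -0.06 with arrays centred on the receptor genes, where 4 were higher, Hsp90aa1 not among them, and 3 lower. Chaperones of the endoplasmic reticulum did not follow, with 11 of 25 lower and 1 higher. Among those lower were Pdia6 (-0.92), Dnajc3 (-0.76) and Edem1 (-0.78), which fold or dispose of secreted proteins, while Hspa5, the main chaperone there, was at -0.34 and not called. Of 23 NRF2 antioxidant genes, 11 were lower, or 6 without 38w replicate 2. The cystine carrier Slc7a11 was at 6.98, 7.20 and 6.97 at 38w and 5.06, 5.32 and 5.33 at 68w, a change of -1.81 (standard error 0.31, adjusted p = 0.000462), and Nqo1 (-1.0), Gsta4 (-1.0) and Txnrd1 (-0.59) were lower. Of 20 targets of p53, 9 were lower, such as Plk2 (-1.40), Sesn1 (-0.94), Ccng1 (-0.72) and Mdm2 (-0.58), and Gadd45b (0.97) was higher.

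Some genes of the circadian clock differed between the ages, and the sources do not state the time of day at which the mice were killed. Of 15 core clock genes, the repressors Per1, Per2, Per3 and Nr1d1 were higher and none was lower, or 1 without 68w replicate 3. The other 11 were not called, and over all genes 17.6% were higher and 20.0% lower. Per3 (0.38) was not called without 38w replicate 1 or 2 or 68w replicate 1 or 2 (adjusted p up to 0.133), and Per2 (0.61) and Per3 not with arrays centred on the receptor genes. Per1 was at 7.69, 8.03 and 7.89 at 38w and 9.03, 8.70 and 9.03 at 68w, a change of 1.05 (standard error 0.16, adjusted p = 0.000165), and Nr1d1, which represses the activator Arntl, at 10.03, 8.66 and 9.26 at 38w and 11.35, 11.54 and 9.80 at 68w, with a change of 1.58 (standard error 0.40, adjusted p = 0.00678). The groups did not overlap in Per1 and overlapped in Nr1d1, where the 38w arrays differed by more than 1 log2 unit. Arntl itself (-0.40) and Clock (-0.12) were not called. The median of the list was 0.13 and turned to -0.10 with arrays centred on the receptor genes, where 2 were higher and 2 lower. Of 17 clock output genes, 6 were higher and 3 lower, with a median of 0.19 that became -0.04 under the same centring. Rgs16, a regulator of G protein signaling, was at 8.82, 8.55 and 9.0 at 38w and 10.25, 10.06 and 11.04 at 68w, a change of 1.66 (standard error 0.34, adjusted p = 0.00165), while Nampt (-1.27), which makes a precursor of NAD, and Tspan4 (-0.82) were lower. The higher count was 3 without 38w replicate 3 or 68w replicate 2. Among 21 immediate early genes, Egr1 (1.16), Zfp36 (1.13), Dusp1 (0.72), Fosb (0.53) and Nr4a1 (0.52) were higher, Klf6 (-1.12) and Ier5 (-0.39) lower and Fos (0.29) and Jun (0.29) not called, and Dusp1, Fosb and Nr4a1 lost their call with arrays centred on the receptor genes. Without 38w replicate 3 or 68w replicate 3, 2 were higher, without 68w replicate 2, 3 were, and 1 was lower without 38w replicate 2 or 68w replicate 2. Their median of 0.12 turned to -0.11 with arrays centred on the receptor genes.

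The promoters of Per1 and Per3 are printed because each holds a known clock element, the E-box CACGTG that CLOCK and BMAL1 bind or the D-box TTATGTAA that DBP and NFIL3 bind. Both strands were searched in the same window of 300 bases. The E-box stood in 4 of 12 core clock promoters found in RefSeq, those of Per1, Cry1, Bhlhe41 and Ciart, beside 8.38% of 15614 promoters, and the D-box in Per3, beside 0.852%. Of the 4 genes with an E-box, Per1 was higher and Cry1 (-0.36), Bhlhe41 (-0.22) and Ciart (0.20) were not called. Such a match is a description of these letters only. The windows are of GRCm38.p6, chr11:69098699-69098998 on the plus strand for Per1 with its E-box in capitals, and chr4:151044616-151044915 on the minus strand for Per3 with its D-boxes in capitals.
Per1: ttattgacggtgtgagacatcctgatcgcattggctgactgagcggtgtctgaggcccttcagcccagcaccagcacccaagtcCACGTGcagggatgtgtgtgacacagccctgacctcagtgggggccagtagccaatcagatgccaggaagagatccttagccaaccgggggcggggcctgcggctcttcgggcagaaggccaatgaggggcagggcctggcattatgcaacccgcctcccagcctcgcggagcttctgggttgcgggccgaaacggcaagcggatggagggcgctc
Per3: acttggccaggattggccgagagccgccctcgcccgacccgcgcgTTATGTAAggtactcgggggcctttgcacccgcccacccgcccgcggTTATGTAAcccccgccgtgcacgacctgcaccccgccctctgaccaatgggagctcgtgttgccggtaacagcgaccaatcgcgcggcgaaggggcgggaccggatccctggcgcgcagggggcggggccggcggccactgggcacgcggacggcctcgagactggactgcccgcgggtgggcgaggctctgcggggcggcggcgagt

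Cell cycle genes were lower. Of 32 genes of the cycle and DNA replication, 17 were lower and none was higher, with a median of -0.51, or 11 lower and 1 higher without 68w replicate 2. Pcna, the clamp of DNA polymerase, was at 10.41, 10.55 and 10.35 at 38w and 9.39, 9.28 and 9.24 at 68w, a change of -1.13 (standard error 0.13, adjusted p = 1.58e-05) without overlap, and Rrm1 (-0.98), which makes deoxynucleotides, Mcm6 (-0.90), of the replication helicase, and Top2a (-0.75) were lower. Of 23 oncofetal and liver tumor markers, 5 were lower and 2 higher, beside 20.0% and 17.6% of all genes. The lower count was thus near the share over all genes. Golm1 (-1.02) and Cd24a (-1.03) were lower beside Lcn2 and Scd2, which other lists also hold. The fetal genes Afp (6.62, 6.63 and 6.56 at 38w and 6.41, 6.49 and 6.37 at 68w) and Gpc3 (6.46, 6.41 and 6.49 at 38w and 6.26, 6.11 and 6.16 at 68w) read low and were not called, at -0.18 and -0.28.

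Hepatocytes differ by their zone in the liver lobule. Of 17 pericentral genes, which lie near the central vein, 9 were lower and 2 higher with a median of -0.57, and of 16 periportal genes 3 were lower and 1 higher with a median of -0.10. The periportal counts were 5 lower without 68w replicate 1 and 3 higher without 68w replicate 3, and the lists were not tested against each other. Rhbg, an ammonia carrier, was at 8.63, 8.24 and 7.80 at 38w and 6.89, 7.21 and 6.91 at 68w, and Lgr5, a receptor of the Wnt pathway, at 8.79, 8.17 and 8.41 at 38w and 7.56, 7.44 and 7.42 at 68w. Neither overlapped, and the changes were -1.22 (standard error 0.18, adjusted p = 0.000124) and -0.99 (standard error 0.18, adjusted p = 0.000758), while Glul (-0.22) and Cyp2e1 (0.07), abundant genes of the same zone, were not called and Tbx3 (0.63) was higher, though not with arrays centred on the receptor genes. Among periportal genes, Mfsd2a, a carrier of lysophospholipids, was at 11.41, 11.38 and 11.58 at 38w and 12.73, 12.95 and 13.02 at 68w, a change of 1.44 (standard error 0.40, adjusted p = 0.0113), and Aldh1b1 (-1.23) was lower. Of 29 xenobiotic P450 genes, 10 were lower and 2 higher with a median of -0.43, among them Cyp2c50 (-1.06), Cyp2c29 (-0.79), Cyp1a2 (-0.73) and Cyp3a11 (-0.63), and probes of these families may be shared. Phase II genes, which conjugate drugs and steroids, were lower in 13 of 25 with a median of -0.47. Tpmt, a thiol methyltransferase, was at 11.62, 11.58 and 11.45 at 38w and 10.63, 10.35 and 10.21 at 68w, a change of -1.16 (standard error 0.13, adjusted p = 1.75e-05), and Nnmt (-1.75), Sult1d1 (-1.38) and Sult1b1 (-1.17) and the glucuronosyltransferases Ugt2b38 (-0.91) and Ugt2b5 (-0.77) were lower.

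Secreted clotting factors were lower in 9 of 22 and higher in 2, with a median of -0.15. Protein S, Pros1, was at 10.36, 10.83 and 10.55 at 38w and 9.12, 8.91 and 9.61 at 68w, a change of -1.37 (standard error 0.17, adjusted p = 3.28e-05), and F11 (-0.76), F8 (-0.80) and F9 (-0.54) were lower, whereas the abundant F2 (-0.02), Plg (0.03) and Serpinc1 (-0.08) were not called. Of 19 hepatocyte transcription factors, by contrast, 9 were higher and none was lower, such as Foxa1 (0.62), Nr1i3 (0.59) and Rxra (0.41), and each of the 19 changes was above 0. None of these calls remained when arrays were centred on the receptor genes, and the count was 5 without 38w replicate 2, 4 without 38w replicate 3, and 3 without 68w replicate 1 or 2. BCAA catabolism, which the study's supplement feeds, was lower in 11 of 24 and higher in 4, with a median of -0.30. Dld, the dehydrogenase shared with the pyruvate and ketoglutarate complexes, was at 10.10, 10.17 and 10.03 at 38w and 9.26, 9.22 and 9.16 at 68w, and Bckdhb, part of the enzyme complex that commits branched-chain ketoacids to breakdown, at 11.16, 11.33 and 11.18 at 38w and 10.62, 10.44 and 10.69 at 68w. Neither overlapped, and the changes were -0.89 (standard error 0.09, adjusted p = 8.57e-06) and -0.64 (standard error 0.10, adjusted p = 0.000173), while the partner subunit Bckdha was higher (0.51), though not with that centring, and the transaminase Bcat2 (0.24) was not called. In the urea cycle Otc (-0.71) was lower, Cps1 (-0.07), Arg1 (-0.07) and Asl (-0.17) were not called, and 5 of 13 genes in all were lower. Of 27 genes of the mTORC1 pathway, 10 were lower and 4 higher. Genes that carry the amino acid signal to mTORC1, Sesn1 (-0.94), Rraga (-0.71), Rragc (-0.57), Lamtor2 (-0.59) and Lamtor5 (-0.59), and the activator Rheb (-0.60) were lower. Mtor (0.56) was higher, though not with that centring. The higher count was 2 without 68w replicate 1. The median of that list was -0.06 and turned to 0.02 with quantile normalization.

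Mitochondrial lists held calls in both directions, where all genes had 17.6% higher and 20.0% lower. Outside complex I more members were lower than higher in the deposited values. Of 35 genes of respiratory complex I, 8 were higher and 8 lower, and of 38 genes of complexes II to V, 7 were higher and 14 lower, with medians of 0.09 and -0.13. The median of complex I turned to -0.14 with arrays centred on the receptor genes. Uqcrb, a subunit of complex III, was at 12.80, 12.75 and 12.76 at 38w and 11.99, 12.05 and 11.94 at 68w, a change of -0.78 (standard error 0.10, adjusted p = 3.25e-05), and Atp5g2, a subunit of the ATP synthase ring, went the other way, from 10.91 to 11.10 at 38w and 11.95 to 12.02 at 68w, with a change of 0.98 (standard error 0.09, adjusted p = 3.25e-06). Neither overlapped. Citric acid cycle genes were lower in 9 of 21, among them Pdha1 (-0.90) and Idh3a (-0.83), and Mdh2 (0.86) alone was higher. Mitochondrial ribosomal proteins were lower in 25 of 77, cytosolic ones in 22 of 60 and proteasome subunits in 13 of 40, and with quantile normalization these counts were 10, 14 and 8. Mitochondrial ribosomal proteins were higher in 8, or 16 with quantile normalization. The proteasome median of -0.10 turned to 0.06 with that normalization.

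Small RNAs held some of the deepest changes. Small nucleolar and Cajal body RNAs guide the modification of ribosomal and spliceosomal RNA, and 24 of 54 were lower and 8 higher, with a median of -0.40. The higher count was 5 without 38w replicate 1 or 2 and 4 without 68w replicate 2. Snora16a was at 11.77, 12.68 and 12.30 at 38w and 8.0, 8.13 and 8.32 at 68w, a 17.2-fold lower signal without overlap, and the change was -4.10 (standard error 0.20, adjusted p = 1.5e-08). Ubl5, a ubiquitin-like protein of splicing, was among the largest increases, at 10.04, 9.35 and 9.28 at 38w and 11.52, 11.39 and 11.20 at 68w, with a change of 1.82 (standard error 0.18, adjusted p = 4.63e-06). Trmt112 (1.68), a partner of methyltransferases, and Wdr83os (1.73), a small membrane protein, rose with it, as did the predicted genes Gm15441 (1.98), Gm15401 (1.96) and Gm5617 (1.80). Gm15441 was not called without 38w replicate 1 or 3 or 68w replicate 2 or 3 (adjusted p up to 0.066). Cgref1 was at 7.20, 7.43 and 7.43 at 38w and 8.45, 9.07 and 10.25 at 68w, a rise of 1.90 in which 68w replicate 3 stood highest. The olfactory receptor Olfr316, a gene liver is not known to use, rose by 1.86. Hmgn5, a nucleosome-binding protein, was at 9.03, 9.40 and 9.38 at 38w and 6.97, 6.46 and 6.33 at 68w, with a change of -2.68 (standard error 0.17, adjusted p = 1.44e-07).

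Of 300 microRNA genes, 87 were higher and 18 lower, with a median of 0.14, and 271 had a RefSeq sequence. The values are of transcript clusters named for a microRNA and do not tell the mature form from its precursor. With arrays centred on the receptor genes, 22 were higher, 48 were lower and the median was -0.09, so no direction is given for the family. The lower count was 10 without 68w replicate 2 or 3. Of the 8 largest called changes, 4 in each direction, 7 are shown with the mature sequence of their name, whose seed, bases 2 to 8, is in capitals, and Mir122 is named only. MicroRNAs with the same seed share predicted targets, and let-7f and let-7c, which restrain growth genes and for which the lower clusters Mirlet7f-2 and Mirlet7c-1 are named, share GAGGUAG.
mmu-let-7f-5p: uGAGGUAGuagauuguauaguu
mmu-let-7c-5p: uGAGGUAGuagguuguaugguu
mmu-miR-15b-5p: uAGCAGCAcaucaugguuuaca
mmu-miR-450b-5p: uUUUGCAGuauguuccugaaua
mmu-miR-192-5p: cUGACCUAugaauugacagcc
mmu-miR-150-3p: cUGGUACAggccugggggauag
mmu-miR-680: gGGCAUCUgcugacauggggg

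In RefSeq, build GRCm38.p6, these lie at chrX:151912353-151912374 (plus strand), chr16:77599672-77599693 (plus), chr3:69009775-69009796 (plus), chrX:53048044-53048065 (minus), chr19:6264857-6264877 (plus), chr7:45121798-45121819 (plus) and chr12:35194849-35194869 (minus). Mirlet7f-2 was at 5.11, 5.23 and 5.26 at 38w and 4.33, 4.14 and 4.34 at 68w, a change of -0.93 (standard error 0.10, adjusted p = 1.69e-05), and Mirlet7c-1 at 5.36, 5.13 and 6.26 at 38w and 4.92, 4.70 and 4.64 at 68w, a change of -0.83 (standard error 0.24, adjusted p = 0.0149). These signals lie near or among those of the dimmest genes. Mir15b changed by -0.86 (standard error 0.22, adjusted p = 0.00705) and Mir450b by -0.71 (standard error 0.20, adjusted p = 0.0128). Mirlet7c-1 was not called without 38w replicate 3 or 68w replicate 3 (adjusted p up to 0.0699), nor Mir450b without 38w replicate 2 or 3 (up to 0.0585). Mir192, abundant in liver and gut, was at 6.08, 5.65 and 5.89 at 38w and 7.08, 7.06 and 6.79 at 68w without overlap, a change of 1.11 (standard error 0.16, adjusted p = 0.000118). Mir150, a microRNA of lymphocytes, and Mir680-3 rose by 0.94 and 0.90. Mir122, the leading microRNA of hepatocytes, was at 7.64, 6.50 and 7.39 at 38w and 9.46, 8.47 and 7.68 at 68w, a change of 1.36 (standard error 0.36, adjusted p = 0.00841).

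**Figure D3:**
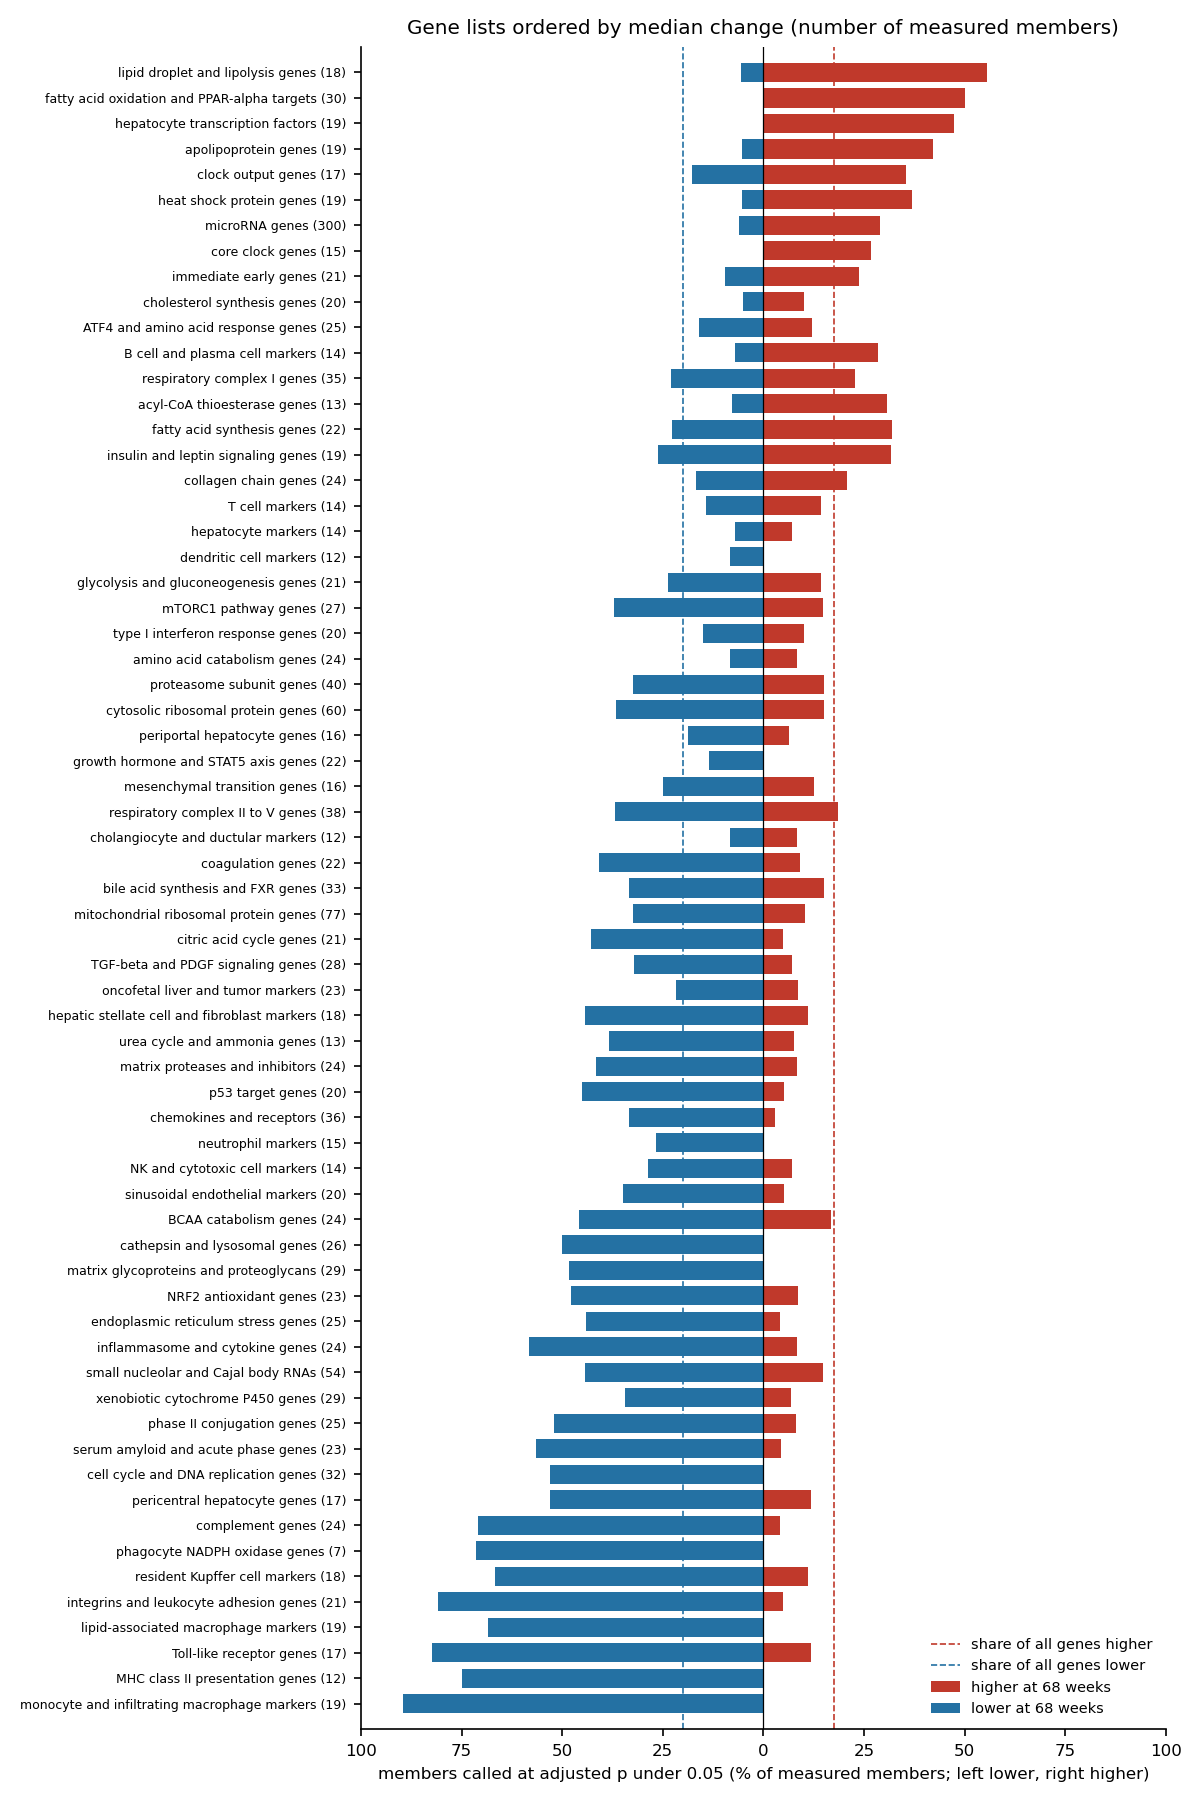
Share of the measured members of each gene list that were called higher (bars to the right) or lower (bars to the left) at 68w in the Ath+HF arrays, in percent. Dashed lines mark the shares over all genes, 17.6% higher and 20.0% lower. Monocyte, Toll-like receptor, integrin and MHC class II genes reach furthest left, and lipid droplet and fatty acid oxidation genes furthest right, while medians of several lists turn sign with another centring, as the plot of list medians under 4 scalings shows.

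**Figure D4:**
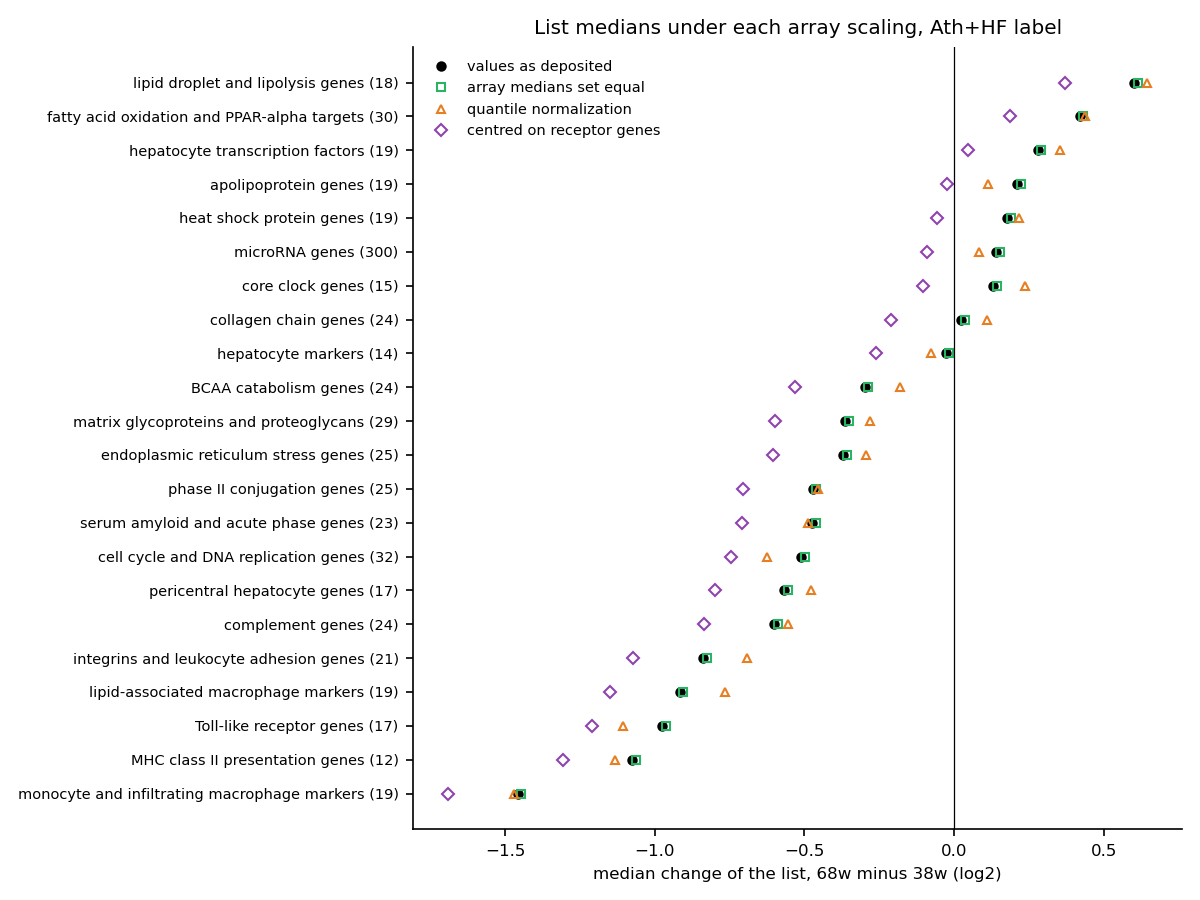
Median log2 change of 22 gene lists between Ath+HF 38w and 68w (horizontal axis) under 4 scalings of the arrays, which are the values as deposited, equal array medians, quantile normalization and centring on the receptor genes. Centring on the receptor genes moves each list to the left, and the medians of the apolipoprotein, heat shock, microRNA, core clock and collagen lists turn negative there, while the macrophage lists lie below 0 under all 4.

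The same step in age was measured under the Ath+HF+BCAA label, in arrays that the comparison above does not use. There 4081 genes (20.5%) were higher and 3654 (18.3%) lower at 68w. Shared with the Ath+HF label were 1228 higher genes, which are 34.9% of those higher with Ath+HF and 30.1% of those higher with Ath+HF+BCAA, and 1725 lower genes, 43.3% and 47.2% of those lower. Opposite calls numbered 699 genes lower with Ath+HF and higher with Ath+HF+BCAA, and 187 the other way. The difference of the 2 changes was tested with an interaction term, which was positive in 1530 genes (7.67%) and negative in 2572 (12.9%). The balance depended on the scaling and turned with array medians set equal, at 3608 and 1820, beside 2128 and 2306 with quantile normalization and 257 and 6994 with arrays centred on the receptor genes.

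Some genes were lower under both labels. Over all genes, 43.3% of those lower with Ath+HF were also lower with Ath+HF+BCAA, and the counts below are to be read beside that share. Of the genes lower with Ath+HF, those also lower with Ath+HF+BCAA were 20 of 24 small nucleolar RNAs, 11 of 13 phase II genes, 10 of 11 genes of BCAA catabolism, 8 of 8 genes of complex I, 13 of 14 of complexes II to V, 8 of 9 of the citric acid cycle, 21 of 25 mitochondrial ribosomal proteins and 11 of 13 proteasome subunits. The Ath+HF+BCAA label had 26, 13, 19, 23, 23, 14, 47 and 27 lower genes in these lists, in the same order. In lists made largely of secreted proteins, these were 7 of 9 clotting factors (10 lower with Ath+HF+BCAA), 9 of 17 complement genes (14) and 5 of 13 acute phase genes (9). The shares were 77.8%, 52.9% and 38.5%, so complement genes were near the share over all genes and acute phase genes below it. The lists were not tested against each other. Snora16a was at -4.10 with Ath+HF and -3.85 with Ath+HF+BCAA, Dld at -0.89 and -0.88, Pros1 at -1.37 and -0.98, and Nnmt at -1.75 and -1.79. Higher under both labels were Ubl5 (1.82 and 1.22), Rgs16 (1.66 and 1.09), all 4 B and plasma cell markers, and Per1, Per2 and Per3. Serum amyloids fell under both, with Saa1 at -4.55 and -3.38, and Saa3 at -3.36 and -2.63. The interaction was not called for Snora16a, Dld, Pros1, Nnmt, Ubl5, Rgs16, Saa1 or Saa3, which does not show that their changes were alike.

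Macrophage and matrix genes parted by label. Of the 17 integrin and adhesion genes lower with Ath+HF, 13 were higher with Ath+HF+BCAA, as were 10 of 17 monocyte markers, 9 of 14 matrix glycoproteins, 8 of 13 markers of lipid-associated macrophages, 8 of 12 Kupffer cell markers, 8 of 17 cell cycle genes and 6 of 9 genes of MHC class II presentation. Higher with Ath+HF+BCAA in these lists were 13, 10, 20, 10, 9, 16 and 9 genes, in the same order. Gpnmb changed by -4.09 with Ath+HF and 0.83 with Ath+HF+BCAA, an interaction of -4.92 (standard error 0.38, adjusted p = 6.21e-07). H2-Ab1 changed by -2.52 and 0.88, an interaction of -3.40 (standard error 0.33, adjusted p = 4.32e-06). Of the 15 genes of fatty acid oxidation higher with Ath+HF, 12 were lower with Ath+HF+BCAA, where 25 of the 30 genes were lower. Cyp8b1 changed by 3.54 and -3.27, the largest positive interaction at 6.82 (standard error 0.65, adjusted p = 3.42e-06). Several of the largest interactions belong to genes that were not called with Ath+HF. These are the elongase Elovl3, the bile acid carrier Slco1a1, the sulfotransferase Sult2a8 and the hormone precursor Apela, whose changes with Ath+HF were -0.21, -0.10, 0.12 and 0.23 and with Ath+HF+BCAA -6.63, -6.06, -5.26 and 4.02. Of the 30 genes with the largest changes, the interaction was called in 25, beside 7.67% positive and 12.9% negative over all genes. Those 30 were picked by their Ath+HF change, which is part of the interaction, so the count is no separate support.

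If the labels of the 68w arrays had been exchanged, the step from Ath+HF 38w to Ath+HF 68w would be read from the arrays labelled Ath+HF+BCAA 68w. The resulting values share the 38w arrays with those above and are given side by side only. The median of the lipid-associated macrophage list would be 0.47 in place of -0.92, of the monocyte list 0.43 in place of -1.46, of MHC class II presentation 0.93 in place of -1.07, and of fatty acid oxidation -0.90 in place of 0.42. Gpnmb would change by 0.78 in place of -4.09, Cyp8b1 by -2.25 in place of 3.54, Hspb1 by -0.19 in place of 2.40, and Cidec by -0.92 in place of 2.17. Other values would keep their sign, such as Snora16a at -4.32, Saa1 at -3.29, Saa3 at -2.82, Dld at -0.90, Nnmt at -1.81, Ubl5 at 1.37 and Per1 at 1.89. List medians that would keep their sign include phase II conjugation at -0.44 in place of -0.47, small nucleolar RNAs at -0.57 in place of -0.40, and BCAA catabolism at -0.50 in place of -0.30.

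**Figure D5:**
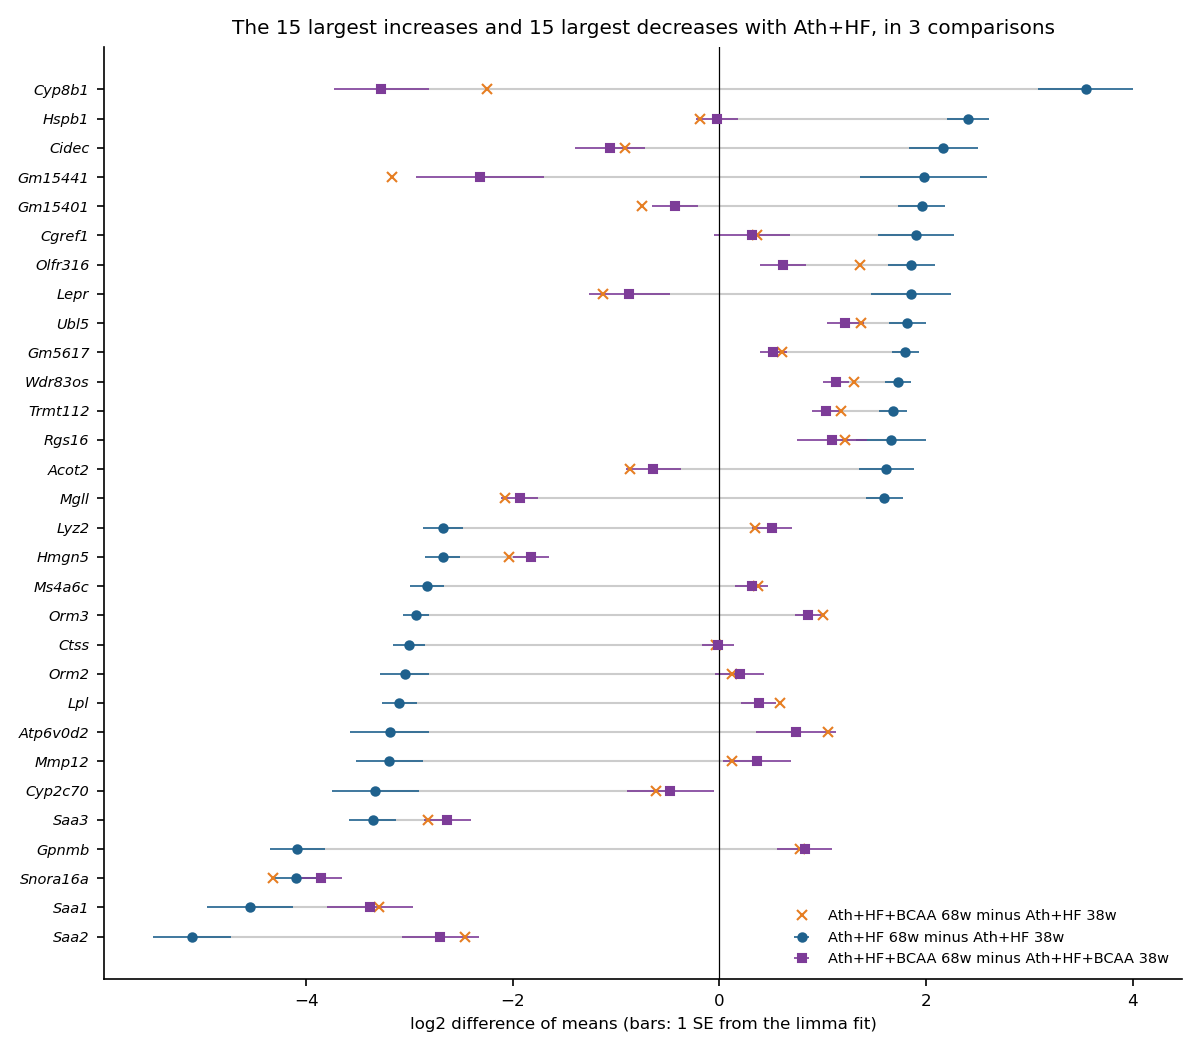
Log2 change of the 30 genes with the largest Ath+HF changes (vertical axis lists the genes) for Ath+HF 68w minus Ath+HF 38w, Ath+HF+BCAA 68w minus Ath+HF+BCAA 38w, and Ath+HF+BCAA 68w minus Ath+HF 38w, the value after an exchange of the 68w labels. Points are changes, bars on the first 2 comparisons are 1 standard error, crosses for the third carry none, and 3 arrays stand in each group. Saa1, Saa3, Snora16a, Ubl5 and Rgs16 move the same way in all 3, while Gpnmb at -4.09 and Cyp8b1 at 3.54 with Ath+HF have the opposite sign in the other 2 comparisons.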

How the data were processed

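RNA from frozen liver was hybridized to 15 arrays (GeneChip Mouse Gene 1.0 ST), and the titles gave 5 groups of 3. The deposited values are log2 signals, 1 per transcript cluster, which the authors made by RMA in Affymetrix Expression Console per the labels' processing notes. The version and the annotation used are not given in the sources used here. RMA quantile-normalizes all arrays together, so a shift of most genes in 1 direction would be lost.

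Of 35556 clusters, 21789 were paired with 1 symbol, 1621 with several and 12146 were unnamed here. For the 999 genes with several clusters the brightest over all arrays was taken, which left 19938 genes. Of the named clusters, 21698 had their Entrez ID in the RefSeq table of GRCm38.p6, and 0 symbols changed. Symbols are those of the platform annotation, and sequences are from RefSeq.

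Group means of all 5 groups were fitted with limma 3.58.1 in R 4.3.3 (lmFit, eBayes), and contrasts were Ath+HF 68w minus 38w, the same under the Ath+HF+BCAA label, the difference of the 2, and Ath+HF+BCAA 68w minus Ath+HF 38w. The fit left 10 residual degrees of freedom and eBayes added 5.31. P-values were adjusted by the Benjamini-Hochberg method over all genes. No arrays held identical values. Replicate numbers come from the titles and were not used in this fit. The correlations of same-numbered residuals were 0.183, -0.0573 and 0.0549. With so few arrays in each group, these values cannot decide whether the numbers pair the arrays.

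The members, the 70 gene lists and families, and the tests were chosen with earlier results of these data known. The rule for named genes took the 15 largest called changes in each direction without overlap, up to 4 called members of each list with the smallest p, the leading 3 markers of each cell type, the 6 largest interactions and the 4 largest called microRNA changes in each direction, 306 genes, of which those that matter are named. Another 122 were named after their values were seen. Alternatives were other scalings, gene values, filters, variance models, a replicate block, the study's own thresholds and leaving out each array. Tested on simulated data of the Ath+HF comparison, with 50 genes changed at each fold among 19938, the fit called 2% at 1.2-fold, 50% at 1.5-fold, 92% at 2-fold and 100% at 4-fold, with 7 calls among unchanged genes. The simulation changed far fewer genes than were called in the data and used independent noise without shifts of whole arrays. Its rates therefore do not carry over to the comparison. Promoter windows are those listed first for a gene.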

Additional observations from a re-analysis of the deposited data

Results flagged for a closer look

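The change from 38w to 68w differed between the Ath+HF and the Ath+HF+BCAA label, by limma's test of the interaction at an adjusted p under 0.05. The signed change was more positive under the Ath+HF label in 1530 genes and more negative in 2572, whatever its size. With array medians set equal the counts were 3608 and 1820. Among the 15 genes that rose most with Ath+HF, the difference of the log2 changes was called in 13, which are Cyp8b1 (6.82), Hspb1 (2.43), Cidec (3.23), Gm15441 (4.29), Gm15401 (2.39), Cgref1 (1.59), Olfr316 (1.25), Lepr (2.73), Gm5617 (1.28), Wdr83os (0.61), Trmt112 (0.65), Acot2 (2.25) and Mgll (3.53). Among the 15 that fell most, it was called in 12, which are Saa2 (-2.40), Gpnmb (-4.92), Cyp2c70 (-2.86), Mmp12 (-3.56), Atp6v0d2 (-3.93), Lpl (-3.48), Orm2 (-3.25), Ctss (-2.99), Orm3 (-3.80), Ms4a6c (-3.14), Hmgn5 (-0.85) and Lyz2 (-3.19). Each value is the Ath+HF change minus the Ath+HF+BCAA change, over 3 arrays in each of the 4 groups. Both sets of 15 were picked by the Ath+HF change, which is part of each value, so these counts are no separate support. Of all genes, 7.67% had a positive and 12.9% a negative difference called. Whether the labels of the 68w arrays were exchanged was not tested, and an exchange would change each of these values.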

How the results depend on the processing

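The counts of genes higher (3518) and lower (3985) with Ath+HF depended on the centring of the arrays and on the threshold. The counts with a more positive (1530) or more negative (2572) change than with Ath+HF+BCAA depended on the centring. With arrays centred on the receptor genes, 420 were higher, 257 had a more positive and 6994 a more negative change. With array medians set equal 3608 had a more positive and 1820 a more negative change, which turned the balance. Over all transcript clusters 5478 were higher. A fold over 1.5 with an unadjusted P under 0.005 gave 699 higher and 1713 lower, and the methods' analysis of variance with Bonferroni's method 1964 higher. Leaving out 1 array gave 2318 to 3053 higher, the lowest without Ath+HF 68w replicate 3, and 3216 to 3701 lower. With a replicate block the 4 counts were 3441, 3899, 1485 and 2512. The numbers were not shown to pair the arrays. Of 428 genes tested under 15 settings, none turned direction with a call. Without the dimmest 30% of genes no call was lost among the 397 of them still tested. The replicate block, the groups compared alone and the mean of a gene's clusters lost 1 call each, and most were lost with arrays centred on the receptor genes, 56, and without Ath+HF 68w replicate 2, 28. Why the receptor genes shifted was not tested. Signals near background limit what small changes of dim genes can show.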

Other observations

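Lists not described above gave few calls. Of 20 type I interferon response genes, 2 were higher and 3 lower with a median of -0.07, or 6 lower without 38w replicate 3, and the subunit Irf9 of the interferon-activated factor rose by 0.55 on the log2 scale. With arrays centred on the receptor genes none of the 20 was higher, Irf9 included, and 8 were lower. Of 12 dendritic cell markers, Irf8, a transcription factor of myeloid cells, was lower (-1.09) and the others were not called, or 4 lower with that centring. Of 24 genes of amino acid catabolism, 2 were higher and 2 lower, or none and 6 with that centring, with Prodh, which breaks down proline, at -1.26. Glycolysis and gluconeogenesis genes were higher in 3 of 21, or 1 without 38w replicate 3 and none with that centring, and lower in 5, or 8, with Pfkfb3, a regulator of glycolytic rate, at -0.69. Of 22 genes of the growth hormone and STAT5 axis, none was higher, or 1 without 38w replicate 3 or 68w replicate 1 or 3, and 3 were lower, including Stat5b (-0.42) and Jak2 (-0.90), and the median was -0.11 with Ath+HF and -0.66 with Ath+HF+BCAA. Adipocyte markers, which would mark fat tissue or fat-laden hepatocytes, were higher in 3 of 8, or none with arrays centred on the receptor genes. Fabp4 (-0.94) of the same list was lower, also with that centring. Of 4 erythroid markers 1 was lower, or 0 without 38w replicate 1 or 3 or 68w replicate 2 or 3.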
